A study of Saccharomyces cerevisiae with 10 samples.

Results

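The genes described here lie within 15 kb of the ends of the 16 nuclear chromosomes of Saccharomyces cerevisiae, budding yeast, in the S288C background. They are the single-gene rows of the authors' tables that end at or before 15000 bp, or that start no more than 15000 bp before the last annotated row of a chromosome, except for 6 genes that the rule leaves out. There are 219 of them among 6816 single-gene rows, and they sit on all 32 chromosome ends. RefSeq annotates 154 as protein-coding and 3 as pseudogenes, and 62 are not in the RefSeq gene table used here. Beyond these 6 omissions and the limit to single-gene rows, the rule uses position alone. On right arms all distances were taken from the end of the last annotated row. It lay 222 to 3527 bp short of the end of the chromosome in RefSeq R64. The innermost of them were YFL057C at 14763 bp, YER186C at 14821 bp and PAU4 at 14980 bp from an end, with mean levels of 24.8, 78.5 and 1.56 FPKM (fragments per kilobase of transcript, scaled to the number of mapped fragments). The first genes beyond the limit were HYR1 at 15052 bp, YPL278C at 15355 bp and ECM34 at 15413 bp, with mean levels of 460, 4.79 and 30.3 FPKM.

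The series asked how transcripts change when RSC, a chromatin remodeller, lacks a subunit, and it measured polyadenylated RNA in 10 libraries. Experiment 1 held WT, rtt102Δ, rsc1Δ, rsc2Δ, npl6Δ and htl1Δ cultures in logarithmic growth in YPD, a glucose medium, with 10 generations given in the titles. Experiment 2 held a WT and an htl1Δ strain, both carrying GALpr-HTL1, HTL1 under a galactose-driven promoter. These were first brought to saturation in YPGR, taken here to be galactose and raffinose medium, and were then grown for 10 generations in YPGR or in YPD. All strains were segregants of diploids heterozygous for an rsc mutation, and the labels do not say how many segregants or clones stand behind a library. There was 1 library for every combination of strain and medium, and hence no replicate check of any difference. Differences are described by size, and none is tested.

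The last stretch of a yeast chromosome carries telomere repeats and the X and Y prime elements, followed by a zone of gene families shared between many ends. Sir proteins, recruited partly through Rap1 and the Ku proteins, can silence genes placed there, a phenomenon known as telomere position effect. Many of the resident genes serve occasional needs, such as the use of unusual sugars, vitamin synthesis, metal resistance or growth with little oxygen. RSC moves and evicts nucleosomes at promoters. Rsc3 and Rsc30, its zinc-cluster subunits, recognise a CGCG-containing motif, and Htl1 and Npl6 belong to the same module of the complex. Rsc1 and Rsc2 are related subunits that are found in alternative forms of RSC, and Rtt102 is a small subunit shared with SWI/SNF.

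The family with the most measured genes near the ends was COS, whose proteins help to sort membrane proteins into the vacuole for destruction. Its promoters are printed first because the core of the motif recognised by Rsc3 occurs in all of them and because several are near-identical. Each sequence was read from the RefSeq R64 assembly, from 250 bases before to 50 bases after the coding start, on the strand of the gene. Capitals mark every CGCGC, the core of the Rsc3 and Rsc30 motif, and every TATAAA, both searched on either strand. COS8 (chrVIII:6151-6450, plus strand) also stands for COS1 and COS5, whose 250 bases before the start are each 99.2% identical to its own. COS7 (chrIV:1552-1851, plus strand) was 92.5% identical to COS8 over the same bases, and COS6 (chrVII:1082680-1082979, minus strand) was 88.7% identical. COS10 (chrXIV:779666-779965, plus strand) was 46.4% identical to COS8, and shares little of its arrangement.
COS8: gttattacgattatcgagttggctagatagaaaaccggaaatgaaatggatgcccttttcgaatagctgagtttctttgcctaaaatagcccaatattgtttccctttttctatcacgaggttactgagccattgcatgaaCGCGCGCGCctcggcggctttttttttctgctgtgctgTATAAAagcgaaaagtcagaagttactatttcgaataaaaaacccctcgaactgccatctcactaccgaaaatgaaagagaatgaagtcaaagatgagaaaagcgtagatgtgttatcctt
COS7: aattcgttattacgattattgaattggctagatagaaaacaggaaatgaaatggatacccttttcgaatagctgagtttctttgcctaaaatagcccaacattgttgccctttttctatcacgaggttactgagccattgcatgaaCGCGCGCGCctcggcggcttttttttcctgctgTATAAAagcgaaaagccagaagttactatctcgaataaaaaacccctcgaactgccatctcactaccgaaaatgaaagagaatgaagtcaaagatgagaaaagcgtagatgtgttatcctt
COS6: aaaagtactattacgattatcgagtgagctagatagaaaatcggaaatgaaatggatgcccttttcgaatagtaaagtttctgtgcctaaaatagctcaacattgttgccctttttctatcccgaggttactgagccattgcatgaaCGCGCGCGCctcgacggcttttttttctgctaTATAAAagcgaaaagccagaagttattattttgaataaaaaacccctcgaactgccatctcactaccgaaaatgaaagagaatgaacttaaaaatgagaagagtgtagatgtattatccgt
COS10: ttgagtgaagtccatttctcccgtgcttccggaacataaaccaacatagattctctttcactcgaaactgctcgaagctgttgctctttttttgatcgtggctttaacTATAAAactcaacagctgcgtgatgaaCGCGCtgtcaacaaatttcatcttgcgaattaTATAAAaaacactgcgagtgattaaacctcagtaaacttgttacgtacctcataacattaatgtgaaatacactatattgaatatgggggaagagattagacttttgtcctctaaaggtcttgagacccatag

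CGCGC was present in all 10 COS promoters, in 24 of the 154 promoters read from genes near the ends (15.6%) and in 641 of 6007 promoters of the genome (10.7%). The 10 COS promoters are among the 24, so the share near the ends rests in large part on that family. In 8 of the COS promoters the motif copies overlap in an unbroken alternation of C and G that is 9 bases long, and this run lies at about the same place, upstream of a TATAAA at position -71 from the coding start. COS12 had a run of 7 bases and no TATAAA, and COS10 a run of 5 bases with TATAAA at other positions. Runs of 8 or more bases occurred in 21 of the 6007 promoters (0.350%). Of these, 9 lie near the ends, those of the 8 COS genes and of YIR043C, which RefSeq annotates as a pseudogene. TATAAA itself was found in 94 of 154 promoters near the ends (61.0%) and in 45.2% of all promoters. The letters of 3 other factors that bind yeast chromosome ends or promoters were also searched on both strands. TTAGGG (Tbf1) was in 4.55% of promoters near the ends against 6.86% of all, ACACCC (Rap1) in 7.14% against 5.78%, and TTACCCG (Reb1) in 0.649% against 7.08%. A match is a description of letters and not of binding.

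Most genes near the ends were listed at low FPKM or at 0. A gene was counted as measured if its mean over the 10 libraries was at least 5 FPKM, and 65 of the 219 genes (29.7%) passed, against 5996 of 6597 other genes (90.9%). Another 65 genes were at 0 in all 10 libraries, and the remaining 89 were above 0 but below the limit. Of the genes below the limit, 27 reached 5 FPKM in some library, while 37 genes were at 5 FPKM or more in every library. All statements on ratios below concern the measured genes, which are the minority of the set.

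The share of measured genes was larger the further a zone lay from the end. It was 9 of 53 genes (17.0%) in the first 5000 bp, 25 of 92 (27.2%) from 5000 to 10000 bp and 31 of 74 (41.9%) from 10000 to 15000 bp. In the next zone, from 15000 to 30000 bp, 180 of 220 genes (81.8%) were measured, and further inside 5807 of 6334 (91.7%). Among RefSeq protein-coding genes alone the shares followed the same order, at 24.2%, 35.5%, 47.5%, 84.2% and 96.6%. Genes that did pass near the ends were also at lower levels, with a median of 13.1 FPKM in the first 5000 bp, 23.7 FPKM in the second and 24.8 FPKM in the third zone, against 61.0 FPKM for measured genes further than 30000 bp inside.

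**Figure D1:**
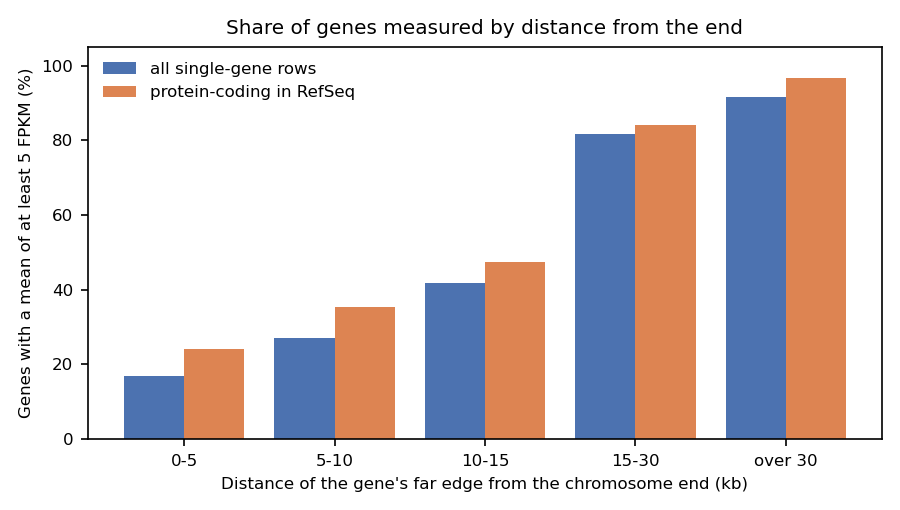
The bars give the percentage of genes whose mean over the 10 libraries was at least 5 FPKM, for all single-gene rows and for RefSeq protein-coding genes. They are grouped by the distance of the gene's inner edge from the chromosome end in kb, on right arms from the end of the last annotated row. The share stands at 17.0% in the outermost zone, 41.9% in the third and 91.7% far from the ends.

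Sequence shared between ends moved with this low signal. Of 155 genes near the ends with a RefSeq protein, 81 have another RefSeq protein of at least 90% identity over at least 80% of their length. Such a copy exists for 9 of the 58 measured genes but for 72 of the 97 unmeasured ones, and for 28 of the 32 protein genes listed at 0 throughout. The sources used here do not say how the authors treated reads that fit several places, and a 0 in these families cannot be told apart from reads that were not assigned. The YRF1 helicases of the Y prime elements show the case at its plainest, with all 6 genes at 0 in every library. COS2 and COS3 are 100% identical in their coding sequence and were at 0 in all libraries, apart from 0.102 FPKM for COS3 in npl6Δ. Among the 3 ERR enolase-like genes 2 were at 0 throughout, and HMLALPHA2, the silent mating-type gene on the left end of chromosome III, was at 0 in all libraries.

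The measured genes included some with high mean levels, most of which varied between libraries. COX14, which is needed for assembly of cytochrome c oxidase, had the highest mean at 926 FPKM, on a locus of only 213 bp. ADH6, an NADPH-dependent alcohol dehydrogenase, followed with 731 FPKM. Next among loci of at least 300 bp came the sodium-phosphate cotransporter PHO89 (148 FPKM), the glutathione transferase GTT1 (140 FPKM), the oxidase of protein disulphide formation ERO1 (124 FPKM), the cysteine-degrading enzyme IRC7 (115 FPKM), COS6 (99.8 FPKM) and the mitochondrial protein MIX23 (95.9 FPKM). Over the 10 libraries COS6 ranged from 88.1 to 119 FPKM and PHO89 from 18.6 to 323 FPKM. IRC7 shares its locus with YFR056C, as SGE1 does with YPR197C, and reads of such partners cannot be told apart without strand. In all, 51 genes near the ends overlap another row. The short loci YNR075C-A (93 bp, 410 FPKM) and TYC1 (120 bp, 101 FPKM) also ranked high, but the length correction makes FPKM unreliable for the 9 measured loci under 300 bp.

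Before the deletions are compared, the libraries themselves need a description. HTL1 was at 2.09 FPKM in htl1Δ of experiment 1 and between 286 and 404 FPKM in its other libraries. In the libraries labelled htl1Δ of experiment 2 it was at 2753 FPKM in YPGR and still at 237 FPKM in YPD, against 2894 and 563 FPKM in WT. Mating type differed between libraries, since the a-cell receptor gene STE2 was between 343 and 746 FPKM in htl1Δ, rsc1Δ, rsc2Δ, rtt102Δ and the library labelled htl1Δ in YPD, while the alpha-cell receptor gene STE3 was between 171 and 452 FPKM in the other 5. The libraries labelled htl1Δ in YPGR and in YPD were thus of opposite mating type. The steps between low FPKM values put the depth of the libraries at an estimated 9220000 to 11720000 fragments, at which 5 FPKM on a locus of 1000 bp stands for about 36 to 48 fragments.

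In all 5 deletions of experiment 1 the share of genes at least 2-fold lower than WT was larger near the ends than over all measured genes. Ratios are log2((FPKM + 1)/(FPKM + 1)) within 1 table, and the 5 comparisons share the same WT library, so they are not independent of each other. In htl1Δ 10 of 64 measured genes were lower, where 2.8% of all 6031 measured genes were, and 5 were higher, where 3.7% were. In npl6Δ 11 of 63 were lower against 3.13% of all, and 4 were higher against 4.41%. In rsc1Δ 14 of 63 were lower against 2.07% of all, and 0 were higher against 1.94%. In rsc2Δ 8 of 63 were lower against 2.58% of all, and 3 were higher against 3.45%. In rtt102Δ 6 of 63 were lower against 1.25% of all, and 2 were higher against 1.16%. These counts include short loci. Among the 56 measured loci of at least 300 bp, 7 were lower in htl1Δ, 7 in npl6Δ, 10 in rsc1Δ and 7 in rsc2Δ. In the same order 3, 3, 0 and 3 were higher. The 6 lower genes in rtt102Δ all had loci of at least 300 bp. Of these genes YPS5, YOL160W, YAR064W and YAL064W-B rested on few fragments, at an estimated 8.1 to 12.2 in WT and 3 to 5 in rtt102Δ. For PHO89 and YIR042C the estimates were 776 and 128 in WT, and 276 and 57.2 in rtt102Δ. The shares of all genes were not limited by length. Nor were they matched for level, and measured genes near the ends had lower median levels than those further inside. With a pseudocount of 10 FPKM the share at least 2-fold different in either direction was 1.59% in rtt102Δ against 1.48% of all genes, so the excess there is not seen under that setting. Most genes near the ends stood close to WT, with medians of -0.03, 0.01, -0.18, -0.16 and 0.00 on the log2 scale in that order of strains, and all measured genes had medians of 0.00 in each.

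**Figure D2:**
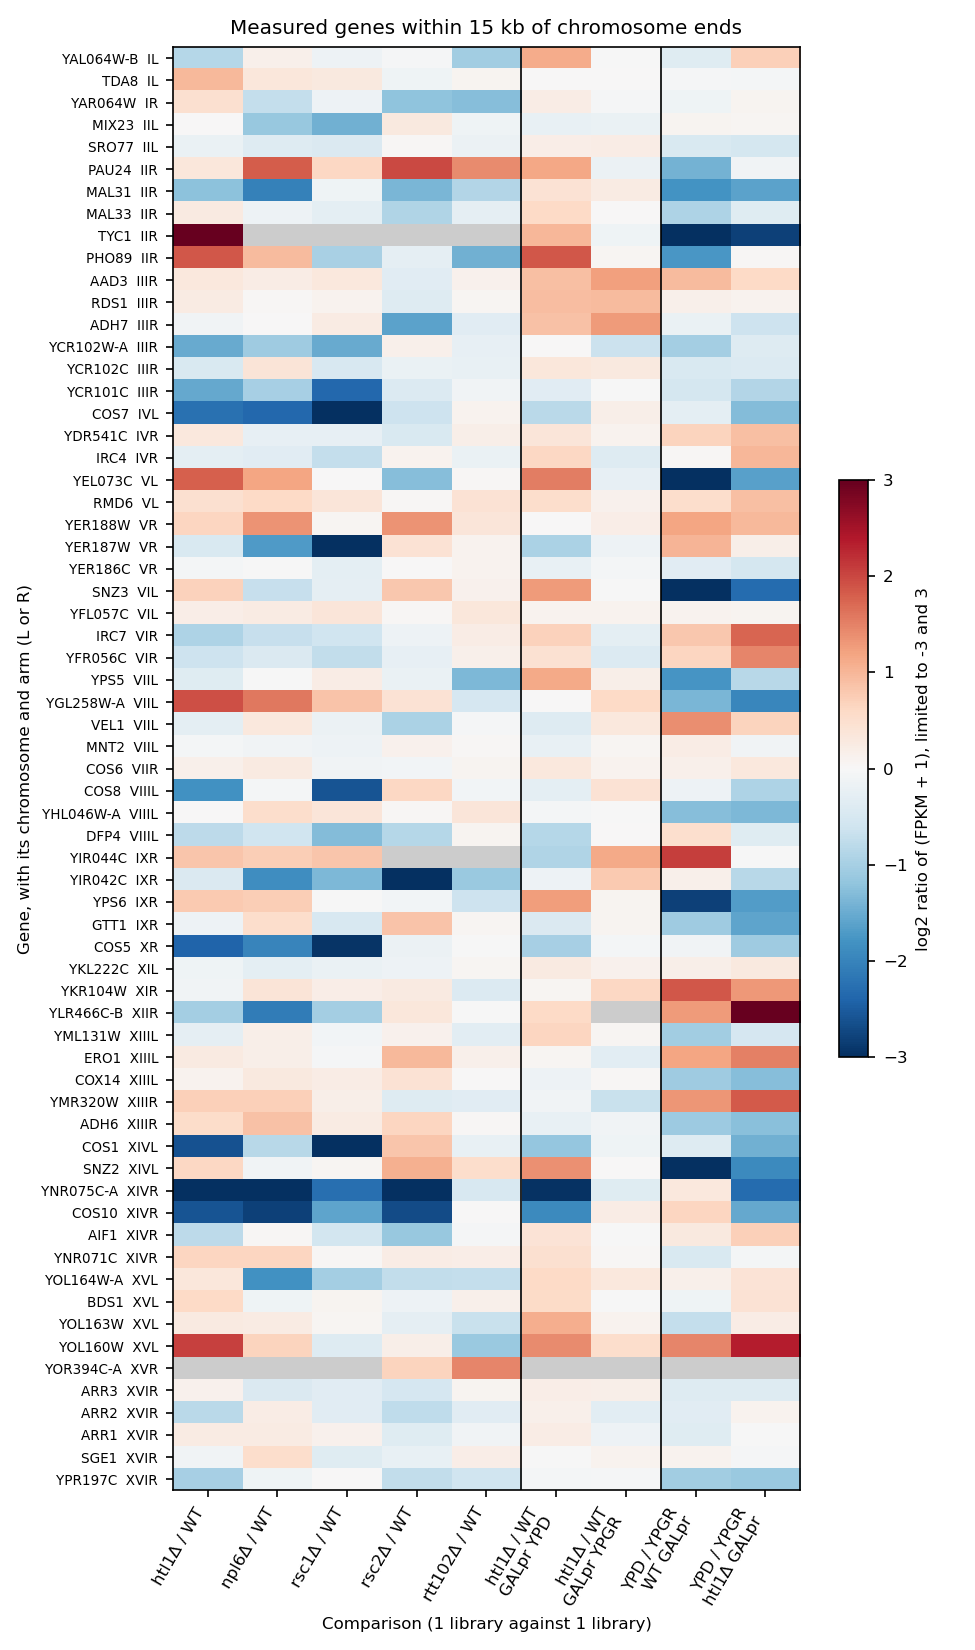
Each row is a measured gene with its chromosome and arm, each column a comparison of 2 libraries, and the colour is the log2 ratio of (FPKM + 1), limited to -3 and 3, with grey where the authors' status was not OK. In the rsc1Δ column 14 genes are at least 2-fold lower and 0 higher, and the medium columns on the right hold more strong colours, with 17 lower genes each.

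The authors' own test called few of these genes. In their deposited table for htl1Δ, 0.514% of all genes tested were called and PHO89 was among them (q = 0.0316), and for rtt102Δ, 0.486% were called, again with PHO89 (q = 0.0116) but in the opposite direction. The authors' deposited table for npl6Δ called 0.435% of genes, with MAL31 the gene near an end (q = 0.0467), and that for rsc1Δ called 0.516%, with YIR043C (q = 0.0126) and COS8 (q = 0.0304). The authors' deposited table for rsc2Δ called 0.433% of all genes and none of these. That test compares 2 single libraries and not strains.

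By distance, the outermost zone held the largest share of lower genes, but only 9 genes were measured there. In the first 5000 bp 4 of 9 measured genes were at least 2-fold lower in htl1Δ, 6 of 9 in npl6Δ, 6 of 9 in rsc1Δ, 3 of 8 in rsc2Δ and 1 of 8 in rtt102Δ. From 5000 to 10000 bp the counts in that order were 5 of 24, 3 of 24, 4 of 24, 5 of 25 and 2 of 25. From 10000 to 15000 bp they were 1 of 31, 2 of 30, 4 of 30, 0 of 30 and 3 of 30. From 15000 to 30000 bp they were 8 of 179, 10 of 178, 6 of 179, 14 of 179 and 2 of 179. Further than 30000 bp inside they were 150 of 5782, 168 of 5783, 103 of 5776, 131 of 5786 and 67 of 5771. The genes behind the outermost counts in npl6Δ and rsc1Δ were COS5, COS7, COS10, YIR042C and the short loci YNR075C-A and YOL164W-A. Lower genes were spread over several ends, on 8 of the 32 ends in htl1Δ, 10 in npl6Δ, 11 in rsc1Δ, 6 in rsc2Δ and 6 in rtt102Δ, while 6 ends held no measured gene.

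Of the 10 COS genes 6 were measured, and 5 of these were at least 2-fold lower in htl1Δ and in rsc1Δ. COS1 (YNL336W, left end of chromosome XIV) was at 15.4 FPKM in WT, 1.76 in htl1Δ, 8.27 in npl6Δ, 0.427 in rsc1Δ, 27.4 in rsc2Δ and 12.8 in rtt102Δ. COS5 (YJR161C, right end of X) was at 7.54 FPKM in WT, 0.656 in htl1Δ, 1.20 in npl6Δ, 0.106 in rsc1Δ, 6.44 in rsc2Δ and 7.35 in rtt102Δ. COS7 (YDL248W, left end of IV) was at 15.7 FPKM in WT, 2.62 in htl1Δ, 2.31 in npl6Δ, 1.06 in rsc1Δ, 9.66 in rsc2Δ and 16.9 in rtt102Δ. These 3 genes thus had their lowest value in rsc1Δ, where the estimated fragments were about 4 for COS1, 1 for COS5 and 10 for COS7, against about 140, 68.8 and 144 in WT.

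COS8 and COS10 differed from these in which strains were low. COS8 (YHL048W, left end of VIII) was at 48.6 FPKM in WT, 13.5 in htl1Δ, 47.3 in npl6Δ, 7.16 in rsc1Δ, 73.3 in rsc2Δ and 45.2 in rtt102Δ. COS10 (YNR075W, right end of XIV) was at 26.7 FPKM in WT, 3.71 in htl1Δ, 2.99 in npl6Δ, 8.20 in rsc1Δ, 3.22 in rsc2Δ and 26.5 in rtt102Δ. COS8 was therefore near WT in npl6Δ, with a log2 ratio of -0.06, and COS10 was the COS gene that was lower in rsc2Δ, with a log2 ratio of -2.67. COS6 (YGR295C, right end of VII) was at 96.2 FPKM in WT, 109 in htl1Δ, 119 in npl6Δ, 89.5 in rsc1Δ, 88.4 in rsc2Δ and 101 in rtt102Δ, and so differed from WT by at most 0.28 log2 units in experiment 1. Its promoter, printed above, holds the same run of 9 alternating C and G bases and the same TATAAA position as that of COS8.

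The log2 ratios to WT give the same picture in 1 scale. In rsc1Δ they were -3.52 for COS1, -3.02 for COS7, -2.94 for COS5, -2.60 for COS8 and -1.58 for COS10. In htl1Δ they were -2.60 for COS1, -2.59 for COS10, -2.40 for COS5, -2.24 for COS7 and -1.80 for COS8. In npl6Δ COS10 was at -2.81, COS7 at -2.36 and COS5 at -1.97, while COS1 was at -0.84. In rtt102Δ the 6 measured COS genes lay between -0.23 for COS1 and 0.10 for COS7. By mating type, htl1Δ and rsc1Δ, with 5 lower COS genes each, were of a type, as were rtt102Δ with 0 and rsc2Δ with 1, while npl6Δ with 3 was of alpha type like WT. The part of mating type in these values was not tested. Because COS6 and COS8 supply most of the family's signal, the summed COS level was 212 FPKM in WT, 134 in htl1Δ, 183 in npl6Δ, 107 in rsc1Δ, 212 in rsc2Δ and 213 in rtt102Δ. COS12 had a mean of 4.09 FPKM and COS4 of 0.330, and neither was measured. The coding sequences of COS1 and COS5 are 90.6% identical and those of COS1 and COS8 84.0%, so some reads may not have been assigned to the right copy.

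**Figure D3:**
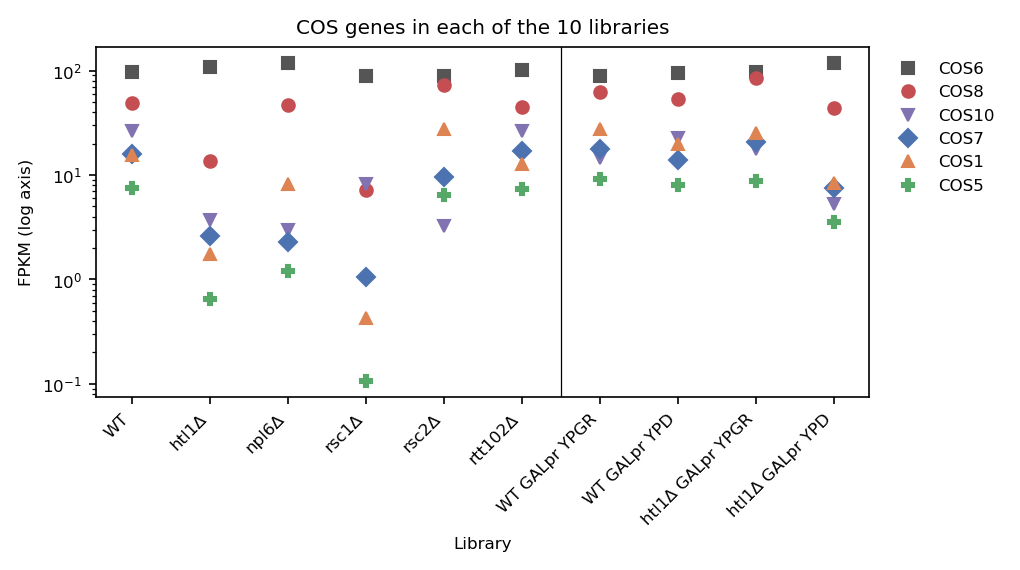
Points show the level of the 6 measured COS genes in FPKM on a log axis in each of the 10 libraries, with experiment 1 left of the line and experiment 2 right of it. In rsc1Δ 5 genes reach values between 0.106 and 8.20 FPKM while COS6 stays at 89.5 FPKM, and in rtt102Δ all 6 are near WT.

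The genes whose promoters carry the long run of alternating C and G can also be set side by side, a grouping made after the values had been seen. Near the ends 5 of 9 such genes were measured, all of them COS genes, and 4 were lower in htl1Δ, 4 in rsc1Δ, 2 in npl6Δ and 0 in rsc2Δ and rtt102Δ. Of the 12 such genes elsewhere 11 were measured, with 0 lower in htl1Δ, npl6Δ, rsc2Δ and rtt102Δ and 1 in rsc1Δ, HOT13, which acts in mitochondrial protein import and had a log2 ratio of -1.15. Among the same 11 genes 1 was higher, NAT4, a histone acetyltransferase gene, with log2 ratios of 1.62 in htl1Δ, 1.53 in npl6Δ and 1.03 in rtt102Δ. Over all measured genes the share lower was 2.8% in htl1Δ, 3.13% in npl6Δ, 2.07% in rsc1Δ, 2.58% in rsc2Δ and 1.25% in rtt102Δ. The share higher was 3.7% in htl1Δ, 4.41% in npl6Δ and 1.16% in rtt102Δ. At shares this small, counts of 0 or 1 among 11 genes say little. The 5 COS genes have closely related promoters and are not independent cases. The pseudogene YIR043C, which also carries the run, fell below the limit with 4.03 FPKM in WT, 0.636 in htl1Δ, 0.583 in npl6Δ, 0 in rsc1Δ, 0.694 in rsc2Δ and 0.839 in rtt102Δ.

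YIR042C, an uncharacterised gene that neighbours YIR043C on the right end of chromosome IX, was lower in 4 of the 5 deletions. It was at 26.2 FPKM in WT, 19.4 in htl1Δ, 6.56 in npl6Δ, 9.73 in rsc1Δ, 2.34 in rsc2Δ and 11.5 in rtt102Δ. Its lowest value was in rsc2Δ, with a log2 ratio of -2.99, and only htl1Δ was less than 2-fold below WT. YNR075C-A, next to COS10, was at least 2-fold lower in 4 deletions too, from 1144 FPKM in WT to 0 in htl1Δ, but at 93 bp its FPKM has little meaning.

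Genes for sugar use and phosphate transport followed other strains. MAL31 (YBR298C, right end of II), the maltose permease, was at 51.7 FPKM in WT, 21.9 in htl1Δ, 12.0 in npl6Δ, 47.3 in rsc1Δ, 19.0 in rsc2Δ and 27.5 in rtt102Δ. It was thus at least 2-fold lower in htl1Δ, npl6Δ and rsc2Δ, and close to WT in rsc1Δ. MAL33, the activator of maltose genes on the same end, was between 8.81 and 22.2 FPKM across experiment 1 and was less than 2-fold different in each deletion. PHO89 was at 53.1 FPKM in WT, 200 in htl1Δ, 105.04 in npl6Δ, 26.5 in rsc1Δ, 42.5 in rsc2Δ and 18.6 in rtt102Δ, so it was above WT in htl1Δ and npl6Δ and below it in the other 3. The arsenic genes ARR1, ARR2 and ARR3, which encode an activator, an arsenate reductase and an arsenite exporter, were all measured, and none was 2-fold different from WT in any deletion.

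Genes outside the COS family were low in rsc1Δ as well. YER187W, an uncharacterised gene on the right end of V, was at 21.5 FPKM in WT, 15.9 in htl1Δ, 5.996 in npl6Δ, 1.36 in rsc1Δ, 28.7 in rsc2Δ and 23.1 in rtt102Δ. YCR101C, an uncharacterised gene on the right end of III, was at 16.2 FPKM in WT, 5.11 in htl1Δ, 7.72 in npl6Δ, 2.33 in rsc1Δ, 11.6 in rsc2Δ and 14.9 in rtt102Δ. In both genes rsc1Δ was the lowest library, and rsc2Δ and rtt102Δ were within 0.44 log2 units of WT. MIX23 was lower in npl6Δ (47.4 FPKM) and rsc1Δ (37.7 FPKM) than in WT (104 FPKM), and was between 94.0 and 125 FPKM in the other deletions. In rsc2Δ the alcohol dehydrogenase ADH7 was at 3.94 FPKM against 14.4 in WT, and AIF1, a mitochondrial cell death effector, was at 17.4 FPKM against 40.8.

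Genes above WT were fewer and lay on few ends. PAU24, a seripauperin of the family of cell wall mannoproteins linked to growth with little oxygen, was at 1.30 FPKM in WT, 1.95 in htl1Δ, 7.16 in npl6Δ, 2.53 in rsc1Δ, 7.98 in rsc2Δ and 5.15 in rtt102Δ. It was the single measured seripauperin of 19 near the ends, of which 9 were at 0 throughout. PAU24 has 13 near-identical proteins and shares its whole locus with YBR300C, and its mean passed 5 FPKM only through the libraries in which it was high, so its ratios are uncertain. The summed level of the 19 was 10.9 FPKM in WT, 31.3 in npl6Δ and between 10.7 and 15.3 in the other deletions. YER188W on the right end of V, next to the lower gene YER187W, was at 13.3 FPKM in WT and at 35.6 in npl6Δ and 34.7 in rsc2Δ. YEL073C on the left end of V was at 23.8 FPKM in WT, 87.6 in htl1Δ, 56.2 in npl6Δ, 24.0 in rsc1Δ, 9.05 in rsc2Δ and 24.4 in rtt102Δ, and thus lay on both sides of WT depending on the strain. YOL160W was at 28.3 FPKM in htl1Δ against 5.97 in WT. The other higher genes in htl1Δ, beside PHO89 and YEL073C, were the short loci YGL258W-A and TYC1, the latter listed at 0 in WT.

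Experiment 2 gives a second comparison of htl1Δ as labelled with WT in YPD that shares no library with experiment 1. It is not an independent repeat of the deletion, since this htl1Δ library still had HTL1 at 237 FPKM, against 563 in WT. In both experiments WT was of alpha type and htl1Δ of a type, so deletion and mating type cannot be told apart in either. In this second comparison 3 of 64 genes near the ends were at least 2-fold lower, where 1.92% of all genes were. A further 10 were higher, where 3.33% were, and the median was 0.21 on the log2 scale against -0.01 for all genes. The 3 lower genes were COS1, COS10 and the short YNR075C-A. COS10 stood at 5.24 FPKM in htl1Δ as labelled and at 22.5 in WT, and COS1 was at 8.46 against 19.9. COS5 was at 3.54 against 8.01 FPKM and COS7 at 7.52 against 13.9, with log2 ratios of -0.99 and -0.81, while COS8 was at 43.4 against 53.5 and COS6 at 117 against 94.1. The measured COS genes other than COS6 were thus all on the lower side again, by less than in experiment 1.

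Of the 10 genes lower in htl1Δ in experiment 1, 7 were below 0 and 3 were at least 2-fold lower in experiment 2. Of the 5 higher genes all 5 were above 0, and 3 were at least 2-fold higher, namely PHO89, YEL073C and YOL160W. Over all 6019 genes 167 were lower in experiment 1, of which 116 were below 0 and 31 at least 2-fold lower in experiment 2. Of 216 higher genes 160 were above 0 and 78 at least 2-fold higher. The 7 of 10 near the ends is thus near the share of all genes. Over the 64 genes the log2 ratios of the 2 experiments had a Pearson r of 0.68 and a Spearman rho of 0.46, and over all 6019 genes an r of 0.33. These are correlations across genes, which share libraries and are not independent replicates. Both experiments set htl1Δ of a type against WT of alpha type, so deletion and mating type cannot be told apart in this likeness. PHO89 had 320 FPKM in htl1Δ as labelled and 86.5 in WT, and the authors' deposited table, which called 0.69% of all genes there, called it (q = 0.0162). The other higher genes included SNZ2, SNZ3, YPS6 and PAU24, which also differed between media in WT. The summed seripauperin level was 31.0 FPKM there in htl1Δ and 4.51 in WT.

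**Figure D4:**
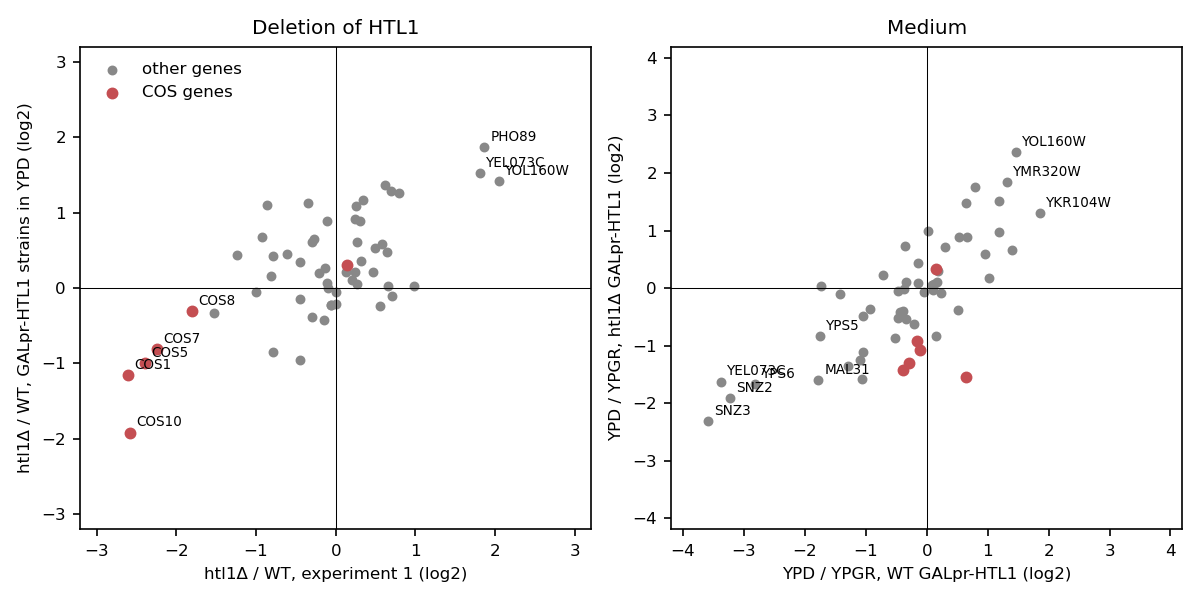
Each point is a measured gene of at least 300 bp, with the log2 ratio of htl1Δ to WT in experiment 1 against that in experiment 2 (left), and the log2 ratio of YPD to YPGR in WT against that in the strain labelled htl1Δ (right); COS genes are red. On the left PHO89, YEL073C and YOL160W are high in both experiments and COS10 and COS1 low in both, and on the right SNZ2, SNZ3, YPS6 and YEL073C are lower in YPD in both strains.

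In YPGR the libraries labelled htl1Δ and WT differed little. HTL1 was at 2753 FPKM in htl1Δ as labelled and 2894 in WT, and both libraries were of alpha type, unlike the pair in YPD. The parts of HTL1 level and of mating type cannot be told apart here. Of 63 genes 0 were at least 2-fold lower, where 0.996% of all genes were, and 3 were higher, where 0.614% were. The authors' deposited table called 0.0% of genes in this pair, so no gene near an end either. All measured COS genes were within 0.42 log2 units of WT, and COS10 was at 17.7 against 14.7 FPKM. The 3 higher genes were ADH7, AAD3 and the short YIR044C. ADH7 was at 23.2 FPKM against 8.84, AAD3, a putative aryl-alcohol dehydrogenase, at 12.6 against 4.73, and the transcription factor gene RDS1 between them at 11.8 against 5.52. These 3 genes are neighbours on the right end of III, and in YPD the same pair of strains stood at 14.3 against 7.21 FPKM for ADH7, 19.0 against 9.71 for AAD3 and 12.4 against 6.04 for RDS1. In experiment 1 htl1Δ was within 0.31 log2 units of WT for each of them. The authors' deposited table gives p-values of 0.0001 for ADH7, 0.0005 for AAD3 and 0.00055 for RDS1 in YPGR, with q-values of 0.105, 0.386 and 0.386. The smallest p-value near the ends in the authors' deposited table for this pair was that of YFL067W, on the left end of VI, with p = 5e-05 and q = 0.0632. It was listed at 7.79 FPKM in htl1Δ and at 0 in WT, and its mean of 3.77 FPKM was below the limit.

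More of these genes differed between media than between any deletion and WT, as did genes at large. In WT 17 of 64 genes were at least 2-fold lower in YPD than in YPGR, where 12.6% of all genes were, and 9 were higher, where 13.2% were. In the strain labelled htl1Δ 17 of 64 were lower, against 13.0% of all, and 7 were higher, against 13.7%. The authors' deposited tables called 0.112% of genes in WT and 0.224% in htl1Δ, and none near the ends. Over 64 genes the log2 ratios of the 2 strains had a Pearson r of 0.67 and a Spearman rho of 0.73. Over all 6021 genes these were 0.76 and 0.84. Of the 17 genes lower in WT, 12 were also at least 2-fold lower in the strain labelled htl1Δ. Of the 9 higher genes, 5 were also at least 2-fold higher there. Over all genes these counts were 546 of 753 and 603 of 796. The likeness between strains was thus no closer near the ends than over all genes. For the strain labelled htl1Δ the medium and the mating type of the libraries cannot be told apart.

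Genes at higher levels in YPGR included SNZ2, SNZ3, YPS6, MAL31, YEL073C and ADH6. SNZ3, a vitamin B6 synthesis gene, was at 54.1 FPKM in YPGR and 3.41 in YPD in WT, and at 54.2 and 9.84 in the strain labelled htl1Δ. SNZ2, with a coding sequence 99.3% identical to it, was at 47.6 and 3.998 FPKM in WT and at 49.1 and 12.0 in the strain labelled htl1Δ. Reads of the pair are hard to assign, and their values moved together. YPS6, a protease anchored at the cell surface, was at 56.9 and 6.91 FPKM in WT and at 61.5 and 18.1 in the strain labelled htl1Δ. MAL31 was at 69.8 and 18.8 FPKM in WT and at 83.8 and 26.0 in the strain labelled htl1Δ. YEL073C was at 302 and 27.0 FPKM in WT and at 257 and 80.1 in the strain labelled htl1Δ, and ADH6 was at 1333 and 597 FPKM in WT and at 1258 and 511. In each of these genes both YPGR libraries were above both YPD libraries. PHO89 differed, with 303 FPKM in YPGR and 86.5 in YPD in WT, but 323 and 320 in the strain labelled htl1Δ.

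Genes higher in YPD included ERO1, at 59.3 FPKM in YPGR and 130 in YPD in WT and at 48.5 and 136 in the strain labelled htl1Δ. YKR104W, annotated as part of an ABC transporter, was at 1.31 and 7.16 FPKM in WT and at 2.58 and 7.61 in the strain labelled htl1Δ. IRC7 was at 59.2 and 99.4 FPKM in WT and at 48.7 and 161 in the strain labelled htl1Δ. In these genes, too, the values of the YPD libraries lay above those of the YPGR libraries in both strains. The 6 measured COS genes differed little by medium in WT, between -0.38 and 0.64 on the log2 scale. In the strain labelled htl1Δ, however, 4 of the 6 were at least 2-fold lower in YPD.

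Few genes that act on chromosome ends were 2-fold different in the deletions, as was the case for genes at large. The list of silencing genes, which holds SIR genes, Ku, Rap1 and their partners, had 21 members measured, and 0 were at least 2-fold different when a deletion was set against WT, in 7 comparisons, with log2 ratios between -0.65 and 0.58. Over all measured genes 0.614% to 4.41% were higher and 0.996% to 3.13% lower in those comparisons, so 0 of 21 is near the share of all genes. SIR2 was between 19.5 and 35.3 FPKM across experiment 1 and SIR3 between 16.4 and 20.7. Between YPD and YPGR in WT the Ku gene YKU70 was lower in YPD (log2 ratio -1.06) and RAP1 higher (1.04). Of 12 telomere maintenance genes, the telomerase gene EST2 was at 15.1 FPKM in rsc2Δ against 7.04 in WT, the one member 2-fold different in a deletion. Between media POL12, a subunit of DNA polymerase alpha, was at 26.6 FPKM in YPD against 12.2 in YPGR in the strain labelled htl1Δ, and no other member was 2-fold different. Over all measured genes 12.6% were lower and 13.2% higher in YPD in WT, and 13.0% and 13.7% in the strain labelled htl1Δ. Both lists are small, and no difference from genes at large was tested.

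The remaining families were mostly below the limit. The 3 hexose transporter genes HXT15, HXT16 and HXT17 summed to between 2.70 and 4.65 FPKM in experiment 1 and to 8.84 in YPGR in WT. The 3 polyol dehydrogenase genes MAN2, SOR1 and SOR2 summed to between 0.578 and 2.18 FPKM in experiment 1, and the HSP31-like genes HSP32, HSP33 and SNO4 to less than 1 FPKM in each of its libraries. The glutathione exchangers GEX1 and GEX2, 99.0% identical in coding sequence, summed to between 1.86 and 5.69 FPKM in experiment 1. No ratio was taken for single genes of these families.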

How the data were processed

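Total RNA from each culture (RiboPure-Yeast) was enriched for polyadenylated molecules with oligo-dT and sequenced on a HiSeq, per the labels' protocols. TopHat, Cufflinks and Cuffdiff were run with sacCer3, per the submitters' processing notes; no source used here gives versions, strand or the handling of reads that fit several places. The authors deposited 9 tables of FPKM values, each for 2 of the 10 libraries, with p-values and q-values of the authors' Cuffdiff test.

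Ratios were taken within a table as log2((FPKM + 1)/(FPKM + 1)), which understates differences of low genes. The same library differed by at most 1.06-fold between tables, and levels are means over the tables that hold it. A gene was measured with the authors' status OK and a mean of at least 5 FPKM over 10 libraries. An absolute log2 ratio of 1 or more counted as 2-fold, a rule of size and not a test. With 1 library per strain and medium no p-value was computed. Named genes were the 6 highest and 6 lowest per comparison among those 2-fold different, the 10 highest levels, up to 4 per family, those 2-fold different in 4 or more deletions and those next to the 15 kb limit; AIF1, RDS1, YIR043C, YOL164W-A, HOT13, the SIR genes and genes sharing a locus were added after their values had been seen. The members, families and lists were chosen with earlier results of these data known. Counting was tested on simulated data.

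Of 6931 rows 115 name several genes and were left out. RefSeq R64 matched 5859 identifiers, 5354 with equal coordinates once 1 was added to the start; sequences came from it. Low values were whole fragments to within 0.1 for 80.4% to 90.7% of values per library. BLAST 2.17.0 gave protein identities, and Python 3.11.15, pandas 2.3.3, NumPy 2.4.6 and Biopython 1.88 were used.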

Additional observations from a re-analysis of the deposited data

How the results depend on the processing

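The percentage of measured genes near the ends that were at least 2-fold different was recomputed under 12 other settings for the 9 comparisons. No paired analysis was possible because each strain and medium had 1 library. A pseudocount of 10 FPKM lowered it to 12.7% in npl6Δ (4.51% of all genes), 12.7% in rsc1Δ (2.17%), 6.35% in rsc2Δ (3.46%), 1.59% in rtt102Δ (1.48%), 6.25% in htl1Δ of experiment 2 in YPD (3.04%), 0% in YPGR (0.863%) and 25% between media in WT (19.8%), since it shrinks the ratios of low genes. In rtt102Δ the genes near the ends were then at the level of all genes, and in YPGR below it. A window of 10000 bp raised it to 39.4% in npl6Δ (7.55% of all genes) and 30.3% in rsc2Δ (6.03%). With a mean of at least 20 FPKM it was 9.09% in htl1Δ of experiment 2 in YPD (4.28% of all genes) and 0% in YPGR (1.16%). With no filter it was 13.7% in YPGR (1.96% of all genes), with 13 genes near the ends higher and 1 lower, and the cause was not tested. Under the other settings each value stayed within the 95% binomial interval of the reported one, which covers counting error only. Leaving out the COS genes and YNR075C-A was a setting chosen after the data had been seen. In experiment 1 it gave 15.8% in htl1Δ (6.5% of all genes), 19.6% in npl6Δ (7.55%), 14.3% in rsc1Δ (4.02%) and 16.1% in rsc2Δ (6.03%). The lower genes then numbered 4, 7, 8 and 6 in that order. Of 80 ratios of named genes 30 came under 2-fold with a pseudocount of 10 FPKM, and 0 with 0.1 or after centring on the median; none changed sign.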
